A study of Mus musculus with 3 samples.

Results

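The CC chemokines described here are 10 genes of LPS-stimulated mouse macrophages, *Ccl2*, *Ccl3*, *Ccl4*, *Ccl5*, *Ccl7*, *Ccl8*, *Ccl9*, *Ccl12*, *Ccl20* and *Ccl22*. They were taken as the gene probes that carry these symbols, which gave 11 probes of the 56605 gene probes on the array and 10 of the 24770 genes with a symbol. *Ccl4* had 2 probes and each of the other 9 genes had 1. RAW macrophages, a mouse macrophage line, were given LPS alone at 50 ng/mL (LPS), *L. rhamnosus* CRL1505 and then the same LPS (CRL1505 + LPS), or *L. plantarum* CRL1506 and then the same LPS (CRL1506 + LPS). The lactobacilli were given for 24 h at 50000000 cells/mL and washed away before LPS, which acts on TLR4 and was present in all 3 groups. The time with LPS is 12 h in the series design and 3 h in the descriptions of the samples. RNA was hybridised in 1 colour (Cy3) to Agilent mouse arrays with 60-base probes, with 1 array for each condition. There was therefore no replicate, and every value below describes these arrays, with no test and no p-value. Arrays of macrophages without LPS were not analysed here. LPS alone and CRL1506 + LPS shared a slide and a scan run. CRL1505 + LPS had a slide and a scan run of its own, so strain and slide cannot be told apart for CRL1505.

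Chemokines are small secreted proteins that direct the migration of leukocytes through receptors coupled to G proteins. In the CC family the leading cysteines of the mature protein are adjacent, and its receptors are named CCR. Macrophages that sense LPS through TLR4 transcribe many CC chemokine genes, by way of NF-kappaB and also of the interferon response that TLR4 starts, and the secreted proteins bring monocytes, T cells and other leukocytes to the site. Within the family, the products of *Ccl2*, *Ccl7*, *Ccl8* and *Ccl12* are the monocyte chemoattractant proteins, those of *Ccl3*, *Ccl4* and *Ccl9* are macrophage inflammatory proteins, and that of *Ccl5* is RANTES.

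The position of the probes follows this grouping. On mm9, the build of the probe annotation, the *Ccl2* probe lies at chr11:81850650-81850709, followed by *Ccl7* at chr11:81860656-81860715, *Ccl12* at chr11:81916710-81916769 and *Ccl8* at chr11:81930108-81930167, all on the plus strand. The probes of *Ccl7* and *Ccl12* are 56.1 kb apart, those of *Ccl2* and *Ccl7* 10 kb, and those of *Ccl12* and *Ccl8* 13.4 kb. After a gap of 1409.2 kb come *Ccl5* at chr11:83339296-83339355, *Ccl9* at chr11:83388223-83388282 and *Ccl3* at chr11:83461358-83461417, on the minus strand, and the brighter probe of *Ccl4* at chr11:83478052-83478111 on the plus strand. *Ccl20* lies on another chromosome, at chr1:83115500-83115559, as does *Ccl22* at chr8:97274709-97274768. Whether a probe lies in coding sequence or in an untranslated region was not determined.

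Genes of the monocyte chemoattractant group resemble each other in sequence, so the probes were searched for shared runs of bases. The 2 probes of *Ccl4* overlap by 46 bases and are not independent of each other. Between different genes, the longest shared run was 13 bases, in the probes of *Ccl12* and *Ccl8*, and the next longest was 9 bases, in those of *Ccl8* and *Ccl9*. The stretches that hold the run of 13 bases are shown because *Ccl8* had the largest difference between arrays, with the run in capitals and each sequence 5′ to 3′ as it stands in the deposited files.
Ccl12 probe, bases 1 to 30: tCCTTGAACCTTCAtgtctaggctgagagt
Ccl8 probe, bases 16 to 45: ttctgcagCCTTGAACCTTCAcacctgagt
On the LPS and CRL1506 + LPS arrays the *Ccl12* probe gave processed signals of 23933.7 and 23441.4, and on these arrays the *Ccl8* probe was not well above background.

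Before the arrays are compared they have to be put on the same scale, and the choice of scale bears on this family. The level of a probe is given here as the log2 of its processed signal minus the log2 signal at the 75th percentile over all gene spots on the same array. That percentile was a signal of 743.1 with LPS alone, 517.0 with CRL1505 + LPS and 697.9 with CRL1506 + LPS, so the scale of the CRL1505 + LPS array stood 0.52 lower than that of LPS on the log2 scale. The spike-in probes, which detect control RNA added to each sample, differed from LPS by 0.01 and 0.02. Scaling to them lowered the median log2 ratio of all genes between CRL1505 + LPS and LPS by 0.54, and with it 4.65% of the genes passed 2-fold upward and 21.1% downward, in place of 9.33% and 8.29%. Differences among the chemokines of an array do not depend on a scale of this kind, and they are given as well. All 10 macrophage markers looked up, such as *Cd68*, *Csf1r* and *Lyz2*, were well above background on each of the arrays. Their levels differed in both directions with CRL1505 + LPS, where the log2 ratio to LPS was 2.40 for *Fcgr1*, 2.27 for *Adgre1* and -1.47 for *Csf1r*, and between -0.38 and 0.73 for the other 7. With CRL1506 + LPS these 3 were at 0.95, 1.0 and -0.87. The other 7 lay between -0.83 for *Tlr4* and 0.03 for *Cd68*, with *Spi1* at -0.76. Of the 10, 7 were below 0, with a median of -0.25, beside -0.07 over all genes. The part of these marker differences in the chemokine values was not tested. None of the 3 epithelial markers was well above background on any array. Of the 3 fibroblast markers, *Col1a1* was well above background on the CRL1506 + LPS array and the others on none, while 2 of 4 T cell markers (*Cd3e* and *Cd3d*) and 2 of 4 B cell markers (*Ms4a1* and *Pax5*) were so on each of them. Of these, *Cd3d*, *Ms4a1* and *Pax5* lay between 0.067 and 0.164 times the 75th percentile, and *Cd3e* between 1.045 and 1.199. The cultures were of a single macrophage line, and the source of these marker signals was not tested.

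On this scale, macrophages given *L. rhamnosus* CRL1505 before LPS had higher levels of *Ccl7*, *Ccl5* and *Ccl8* than macrophages given LPS alone, by 3.99-fold, 2.27-fold and at least 10.3-fold. In bulk RNA, more cells that transcribe a gene and more transcripts per cell cannot be told apart. These genes were 3 of the 9 members that could be compared, and no member was at least 2-fold lower. Among the 15335 genes compared, 9.33% passed 2-fold upward and 8.29% downward. The other 6 members, *Ccl9*, *Ccl12*, *Ccl2*, *Ccl3*, *Ccl4* and *Ccl20*, had log2 ratios between 0.05 and 0.72. The median log2 ratio of the 8 members measured on both arrays was 0.54, with all 8 above 0, beside 0.05 over all genes measured on both. With spike-in scaling it was 0.0, with 4 members above 0 and 4 below, beside -0.48 over all genes. With no scaling it was 0.02, again with 4 above and 4 below, beside -0.47. *Ccl8* could enter this count only as higher, since it was well above background with CRL1505 + LPS alone, and without it the count was 2 of 8.

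Macrophages given *L. plantarum* CRL1506 before LPS stayed within 2-fold of LPS alone for all compared members except *Ccl20*, which was 2.60-fold lower. No member was at least 2-fold higher, and 1 of 8 was at least 2-fold lower, while over the 15502 genes compared 4.67% passed 2-fold upward and 3.43% downward. *Ccl7* came nearest to the threshold from below, at 1.78-fold higher. The median log2 ratio of the 8 members was 0.08, beside -0.07 over all genes measured on both arrays. Both comparisons use the same LPS array, so a deviation of that array would enter each of them.

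Set directly against each other, CRL1505 + LPS was at least 2-fold above CRL1506 + LPS for 4 of 9 members, namely *Ccl8*, *Ccl20*, *Ccl7* and *Ccl5*, and at least 2-fold below for none. Over the 15236 genes compared, 8.74% passed 2-fold upward and 6.71% downward. For genes measured on all arrays this ratio is the difference of the other log2 ratios and adds no measurement of its own. The count depended on the scale, and so did the share of all genes past 2-fold upward. With a shift by the median the count was 6, beside 22.2%, and with normexp on mean signals 3, beside 6.48%. The count fell to 1 with spike-in scaling and with no scaling, beside 4.63% and 4.59%. Under 4 of the other normalizations it was 2, beside 5.63% to 10.4%. *Ccl8* entered the comparison only through the array on which it was high, so its place in the count was fixed by the filter on dim probes, and among the 8 members well above background on all arrays the count was 3.

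**Figure D1:**
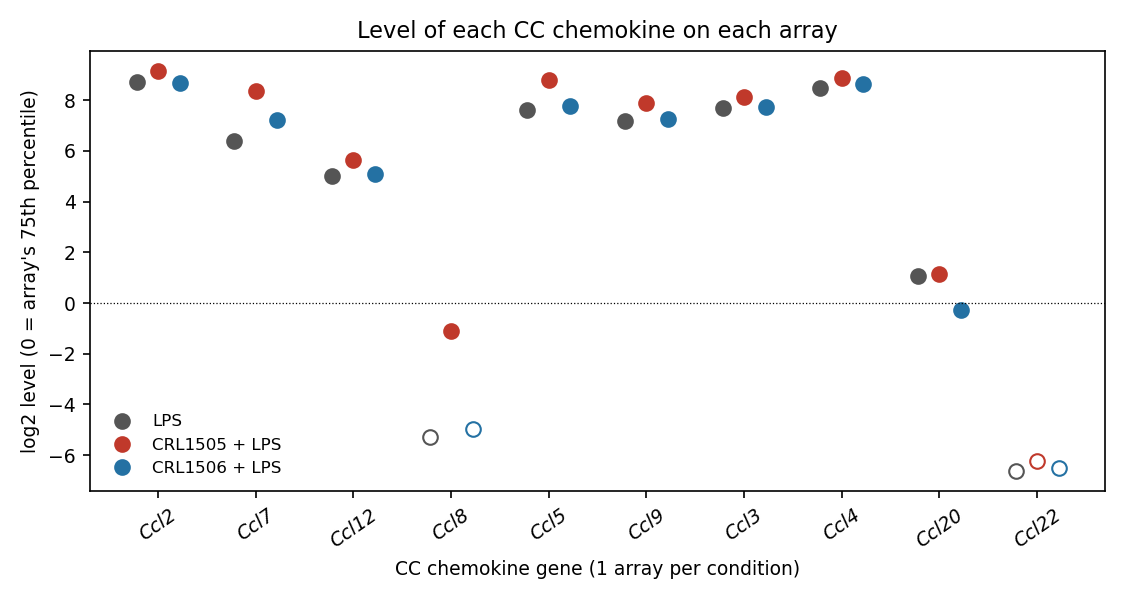
Level of each CC chemokine gene on each array, as log2 of the processed signal relative to the array's 75th percentile (vertical axis), with 1 point for each of the 3 arrays and genes along the horizontal axis. Open circles are probes not well above background, and heights can be compared only within a gene. The CRL1505 + LPS point is apart from the others for *Ccl7*, *Ccl5* and *Ccl8*, and the CRL1506 + LPS point is apart for *Ccl20*.

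The spread against which these differences can be read is technical. The error that the software gives for a bright spot was 10% of its signal, which amounts to 0.20 for a log2 ratio. Among genes with several probes, the SD of the log2 ratio between probes of the same gene had a median of 0.229 for CRL1505 + LPS against LPS, 0.215 for CRL1506 + LPS against LPS and 0.324 between the strains. Repeated spots of the same probe differed less, with a median SD of 0.048, 0.043 and 0.047. Differences between cultures of the same condition are in none of these values.

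Among the monocyte chemoattractant genes, *Ccl7* showed the largest difference that was measured on all arrays. Its product attracts monocytes and other leukocytes through several receptors, CCR2 among them. The processed signal of its probe was 62140.3 with LPS alone, 172588.4 with CRL1505 + LPS and 104159.4 with CRL1506 + LPS. Before any scaling, then, LPS was lowest, CRL1506 + LPS intermediate and CRL1505 + LPS highest. The scaled log2 levels were 6.39, 8.38 and 7.22. The log2 ratio to LPS was 2.0 for CRL1505 + LPS and lay between 1.46 and 2.29 under 8 other normalizations, always past 2-fold. For CRL1506 + LPS it was 0.84 and lay between 0.64 and 1.0, always above 0 and below 2-fold. Between the strains the log2 ratio was 1.16, and it was past 2-fold under 2 of the 8 other normalizations, with a range of 0.73 to 1.66.

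*Ccl8* was the member whose detection differed between arrays. Its product is a monocyte chemoattractant protein that in the mouse acts on CCR8. The signal of its probe was 19.1 with LPS alone, 238.8 with CRL1505 + LPS and 22.6 with CRL1506 + LPS, and among the 3 arrays it was well above background with CRL1505 + LPS only. The lowest signal called well above background was 33.3 with LPS alone and 33.1 with CRL1506 + LPS. Set against these floors after scaling, *Ccl8* was at least 10.3-fold higher with CRL1505 + LPS than with LPS and at least 9.75-fold higher than with CRL1506 + LPS. The log2 bounds were 3.36 and 3.29, with ranges of 2.14 to 3.84 and 2.01 to 3.95 under the other normalizations. CRL1506 + LPS and LPS could not be compared for this gene. The level on the CRL1505 + LPS array was itself low, 1.11 below the 75th percentile on the log2 scale.

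*Ccl2* encodes the chemoattractant through which CCR2 draws monocytes out of the bone marrow and into tissue. Its signal was 312528.5 with LPS alone, 296227.2 with CRL1505 + LPS and 287110.4 with CRL1506 + LPS. Unscaled, LPS alone was the highest of the 3. After scaling, the log2 ratio to LPS was 0.45 for CRL1505 + LPS, from -0.09 to 0.74 under the other normalizations and below 0 with spike-in scaling and with no scaling. It was -0.03 for CRL1506 + LPS, from -0.23 to 0.15.

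*Ccl12*, a mouse gene whose product also binds CCR2, gave signals of 23933.7 with LPS alone, 25813.7 with CRL1505 + LPS and 23441.4 with CRL1506 + LPS. The log2 ratio to LPS was 0.63 for CRL1505 + LPS, with a range of 0.10 to 0.93, and 0.06 for CRL1506 + LPS, with a range of -0.14 to 0.19. The 4 genes of the monocyte chemoattractant group thus had unequal values with CRL1505. *Ccl7*, which lies between *Ccl2* and *Ccl12* on the chromosome, was 1.46 above the median log2 ratio of the measured members, while *Ccl2* was 0.09 below and *Ccl12* 0.09 above it.

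*Ccl5* encodes RANTES, which attracts T cells and monocytes and is known to be induced by interferon as well as by NF-kappaB. Its signal was 145677.8 with LPS alone, 230450.1 with CRL1505 + LPS and 153534.8 with CRL1506 + LPS. The LPS and CRL1506 + LPS signals lay close together and the CRL1505 + LPS signal above both, also before scaling. The log2 ratio to LPS was 1.19 for CRL1505 + LPS, with a range of 0.65 to 1.48. It fell below 2-fold with spike-in scaling and with no scaling, and stayed past 2-fold under the other 6. For CRL1506 + LPS it was 0.17, with a range of -0.03 to 0.34. Between the strains the log2 ratio of 1.02 was just past 2-fold, and it was past 2-fold under 1 of the 8 other normalizations.

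Of the macrophage inflammatory proteins, *Ccl3* and *Ccl4* differed little between arrays. *Ccl3* encodes a ligand of CCR1, and its signal was 153286.9 with LPS alone, 145081.8 with CRL1505 + LPS and 150669.2 with CRL1506 + LPS. *Ccl4* encodes an attractant of T cells and monocytes, and its brighter probe gave 268966.7, 243548.4 and 280504.5. Before scaling, CRL1505 + LPS was thus the lowest of the 3 arrays for both genes. After scaling, the log2 ratio of CRL1505 + LPS to LPS was 0.44 for *Ccl3* and 0.38 for *Ccl4*, with ranges of -0.09 to 0.74 and -0.16 to 0.68, and both were below 0 with spike-in scaling and with no scaling. The other probe of *Ccl4* gave 0.41. For CRL1506 + LPS the log2 ratios were 0.07 and 0.15, with ranges of -0.13 to 0.23 and -0.05 to 0.33.

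*Ccl9*, whose product is a ligand of CCR1, gave signals of 106593.3 with LPS alone, 122567.3 with CRL1505 + LPS and 106700.0 with CRL1506 + LPS. The log2 ratio to LPS was 0.72 for CRL1505 + LPS, the fourth highest of the 9 members compared, with a range of 0.19 to 1.02 that stayed above 0. For CRL1506 + LPS it was 0.09, with a range of -0.11 to 0.25.

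*Ccl20* encodes the ligand of CCR6, which draws dendritic cells and lymphocytes toward mucosal tissue. Its signal was 1573.7 with LPS alone, 1133.7 with CRL1505 + LPS and 569.0 with CRL1506 + LPS, and the scaled log2 levels were 1.08, 1.13 and -0.29. CRL1506 + LPS was the lowest of the 3 with and without scaling. Its log2 ratio to LPS was -1.38, between -1.58 and -1.27 under the 8 other normalizations and always past 2-fold. For CRL1505 + LPS it was 0.05, with a range of -0.49 to 0.35, and 4 of the 8 other normalizations gave the opposite sign. Between the strains, CRL1505 + LPS was 2.69-fold higher, with a log2 ratio of 1.43 and a range of 0.99 to 1.92.

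*Ccl22*, whose product acts on CCR4 of T cells, stayed near background, and on none of the 3 arrays was its probe well above it. Its signals were 7.5 with LPS alone, 6.9 with CRL1505 + LPS and 7.6 with CRL1506 + LPS, so no ratio is given.

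**Figure D2:**
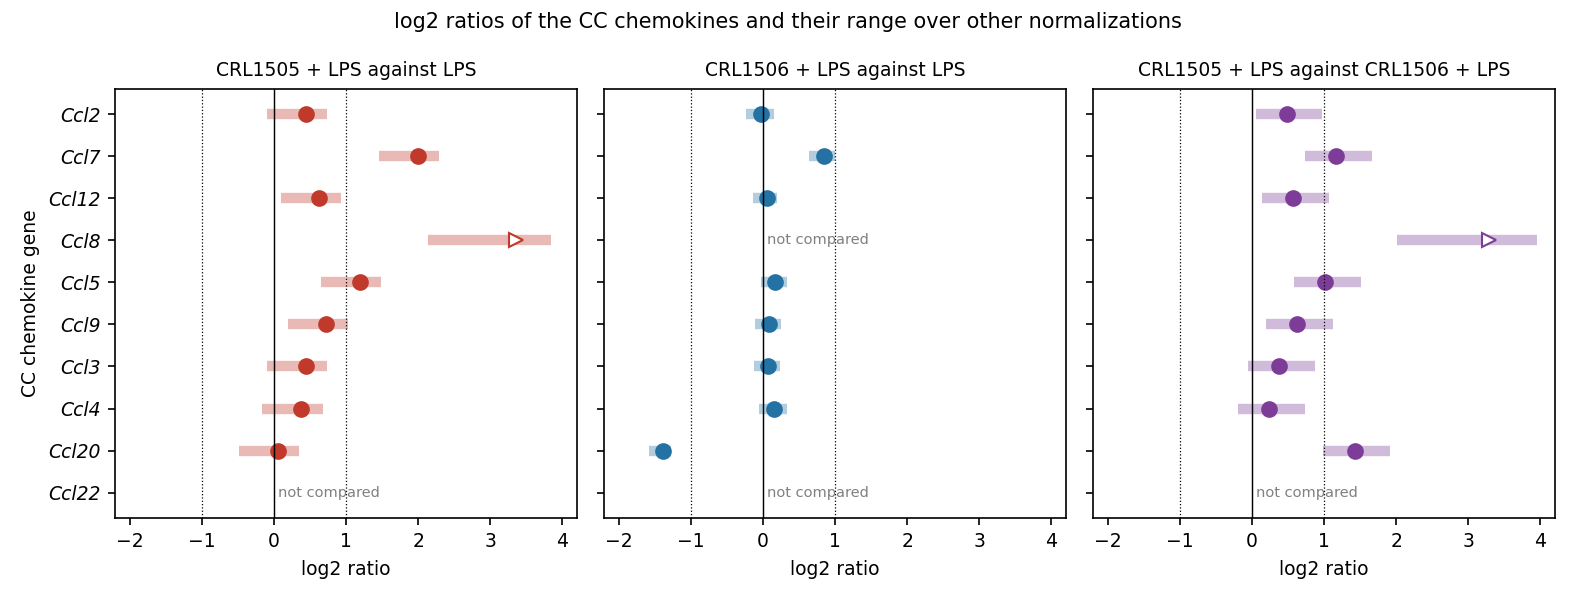
log2 ratio (horizontal axis) of each CC chemokine gene (vertical axis) in the 3 comparisons. Points are the values with the 75th percentile scale, open triangles are lower bounds, pale bars span 8 other normalizations, and dotted lines mark 2-fold. The bars of *Ccl7* and *Ccl8* lie beyond 2-fold in the comparison of CRL1505 + LPS with LPS, and the bar of *Ccl20* lies beyond 2-fold lower in that of CRL1506 + LPS with LPS.

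Set against each other, the members kept an order that no shift of a whole array can alter. For CRL1505 + LPS against LPS, *Ccl7* stood 1.46 and *Ccl5* 0.65 above the median log2 ratio of the 8 measured members, *Ccl20* 0.49 below it, and the others within 0.19 of it. For CRL1506 + LPS against LPS, *Ccl7* stood 0.76 above the median and *Ccl20* 1.46 below it, and the others within 0.11. In both comparisons, which share the LPS array, *Ccl7* was thus the highest of the measured members and *Ccl20* the lowest. *Ccl9*, *Ccl12*, *Ccl2*, *Ccl3* and *Ccl4*, neighbours in the order for CRL1505, had log2 ratios between 0.38 and 0.72, and each step between neighbours was smaller than the median SD between probes, 0.229.

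**Figure D3:**
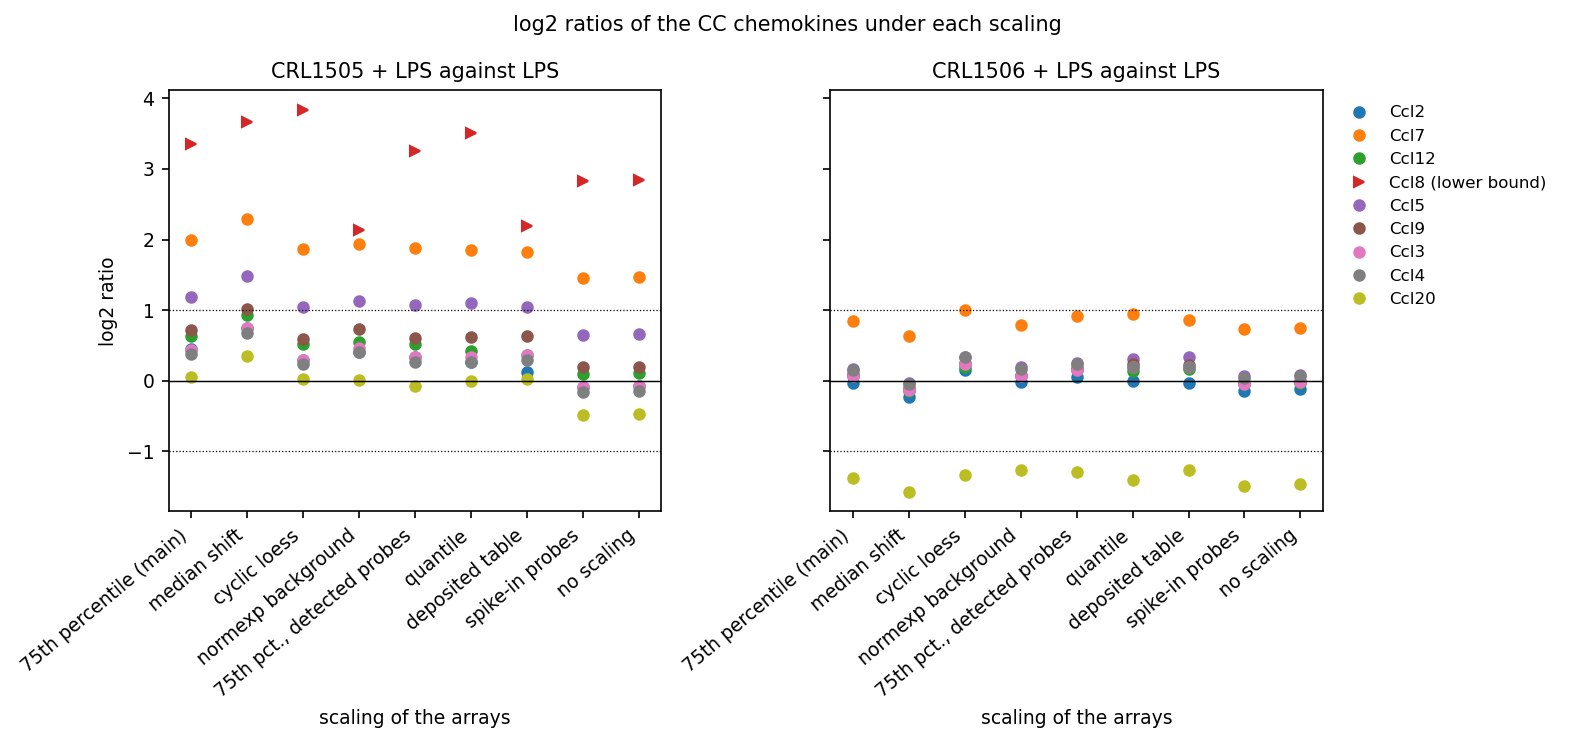
log2 ratio to LPS (vertical axis) of each CC chemokine gene under the 75th percentile scale and 8 other normalizations (horizontal axis), for CRL1505 + LPS on the left and CRL1506 + LPS on the right. Triangles are the lower bounds of *Ccl8*, and dotted lines mark 2-fold. On the left the points of the genes measured on both arrays are lowest with spike-in scaling and with no scaling, where *Ccl2*, *Ccl3*, *Ccl4* and *Ccl20* are below 0 and *Ccl7* remains at 1.46 and 1.47.

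Of the 10 other CC ligands looked up, 3 were well above background on all arrays (*Ccl6*, *Ccl17* and *Ccl25*) and 4 on none. Of the 6 that could be compared, none was at least 2-fold higher with either strain than with LPS alone. Among all genes, 9.33% were so with CRL1505 and 4.67% with CRL1506. *Ccl24*, which encodes an eosinophil attractant, had a level of 1.07 times the 75th percentile with LPS alone, 0.046 with CRL1505 + LPS and 0.076 with CRL1506 + LPS. It was not well above background with CRL1505, where the log2 ratio was at most -4.22, and its log2 ratio was -3.82 with CRL1506. With CRL1505, *Ccl24*, *Ccl1* and *Ccl28* could be counted only as lower, since they were not well above background there. *Ccl17*, which encodes another ligand of CCR4, had log2 ratios of -0.82 and -1.19. Under other normalizations, 1 to 3 of the 6 ligands compared with CRL1505 were at least 2-fold lower, beside 4.26% to 21.1% of all genes. The count of 3 came only with spike-in scaling and with no scaling, where the shares were 21.1% and 20.5%. With CRL1506, 1 to 2 of the 6 were at least 2-fold lower, beside 1.74% to 5.29% of all genes.

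The receptors were mostly dim in these macrophages. Of 12 receptor genes, *Ccr2*, *Ccr8*, *Ccr10* and *Ccrl2* were well above background on all arrays and 6 genes on none, among them *Ccr1*, *Ccr4* and *Ccr6*. Of the 12, 6 could be compared with LPS, and none of these was at least 2-fold different with either strain. Among all genes, 9.33% were past 2-fold upward and 8.29% downward with CRL1505, and 4.67% and 3.43% with CRL1506. *Ccr3* and *Ccr7* could be counted only as lower, since both were dim with either strain. Beside such shares, the absence of a 2-fold difference among 6 genes does not set the receptors apart from other genes. Under other normalizations up to 1 was at least 2-fold higher with CRL1505, beside 4.65% to 14.6% of all genes. Up to 1 was at least 2-fold lower with either strain, beside 4.26% to 21.1% of all genes for CRL1505 and 1.74% to 5.29% for CRL1506. *Ccrl2*, which encodes a receptor that binds without signalling, had levels of 59.3 times the 75th percentile with LPS alone, 108 with CRL1505 + LPS and 69.9 with CRL1506 + LPS, with log2 ratios of 0.87 and 0.24.

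The genes that LPS induces through interferon and through NF-kappaB give the setting of these chemokine values. Of 14 interferon-induced genes, all measured on all arrays, 12 were at least 2-fold higher with CRL1505 + LPS than with LPS and none was 2-fold lower, with a median log2 ratio of 1.90, beside 9.33% of all genes past 2-fold upward. The largest were *Ifit2* at 2.82 and *Ifit3* at 2.71, which encode antiviral proteins, and the remaining 2 were *Cxcl10* at 0.47 and *Cxcl11* at 0.09. Under other normalizations 9 to 12 of them were at least 2-fold higher, beside 4.65% to 14.6% of all genes. With CRL1506 + LPS, *Ifit3*, *Rsad2* and *Mx1* were at least 2-fold higher, at 1.26, 1.11 and 1.08, *Cxcl9* was lower at -1.27, and the median was 0.59. Among all genes 4.67% were at least 2-fold higher with CRL1506. Under other normalizations 1 to 5 of the list were, beside 2.12% to 5.52% of all genes. On the same arrays *Ccl7* was at 2.0 and 0.84 and *Ccl5* at 1.19 and 0.17.

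Of 15 genes of NF-kappaB feedback and the early LPS response, 14 could be compared. With CRL1505 + LPS, *Ptgs2*, *Tnfaip3* and *Il1b* were at least 2-fold higher than with LPS, at 1.63, 1.11 and 1.07, and *Cxcl1* was lower, at most -1.80, beside 9.33% and 8.29% of all genes. *Cxcl1* could enter this count only as lower, since it was not well above background with CRL1505 + LPS. Under other normalizations 1 to 5 of the list were at least 2-fold higher, beside 4.65% to 14.6% of all genes. From 0 to 2 were at least 2-fold lower, beside 4.26% to 21.1%. The median of the 13 measured was 0.43, and it ranged from -0.11 to 0.72 under other normalizations. With CRL1506 + LPS all 14 had ratios below 0, beside 40.8% of all genes above 0 in this comparison, with a median of -0.51 and a range of medians from -0.71 to -0.40, and under other normalizations 13 or 14 were below 0. *Cxcl1*, *Il1b* and *Icam1* were at least 2-fold lower, at -1.80, -1.04 and -1.03, beside 3.43% of all genes. Under other normalizations 1 to 3 of the list were, beside 1.74% to 5.29% of all genes. *Ccl20* was lower than LPS on the same array, at -1.38, while *Ccl2*, *Ccl3*, *Ccl4* and *Ccl5* lay between -0.03 and 0.17. These lists and the chemokines were measured on the same 3 arrays, and no test of the lists against each other was made.

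The genes whose pair of log2 ratios to LPS lay nearest to that of a member were sought for *Ccl5*, *Ccl7* and *Ccl20*, among 12658 genes well above background on all arrays. Only these ratios were matched, so the number of genes that lay close is given too. For *Ccl5* they were *Trim34a* (1.18 and 0.17), *Usp49* (1.18 and 0.19) and *Rcn1* (1.21 and 0.18), with 212 genes within a distance of 0.25. For *Ccl7* they were *Dnajb6* (2.0 and 0.85), *Gm7609* (1.99 and 0.79) and *B3gnt2* (1.94 and 0.82), with 29 genes within that distance. For *Ccl20* they were *Cish* (-0.10 and -1.33), *Nab2* (-0.08 and -1.19) and *Itga4* (-0.17 and -1.30), with 4 genes within that distance.

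The RefSeq promoters of the members, on GRCm38.p6, were read for motifs in the 250 bases before the start site and the 50 bases after it, on both strands. The table matched 6 of the 10 genes, *Ccl3*, *Ccl8*, *Ccl9*, *Ccl12*, *Ccl20* and *Ccl22*. Of the members at least 2-fold apart between the strains, *Ccl8* and *Ccl20* were among them, and the part before the start site is shown for these, 5′ to 3′ on the plus strand, which is the strand of both genes. Capitals mark TATAAA in *Ccl8* and a run of GGG, any 4 bases and CCC in *Ccl20*.
Ccl8 promoter, chr11:82114935-82115184: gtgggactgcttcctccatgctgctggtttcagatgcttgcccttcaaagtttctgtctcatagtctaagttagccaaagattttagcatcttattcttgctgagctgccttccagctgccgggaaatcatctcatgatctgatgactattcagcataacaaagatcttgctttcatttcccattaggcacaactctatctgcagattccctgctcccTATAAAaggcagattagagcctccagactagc
Ccl20 promoter, chr1:83116516-83116765: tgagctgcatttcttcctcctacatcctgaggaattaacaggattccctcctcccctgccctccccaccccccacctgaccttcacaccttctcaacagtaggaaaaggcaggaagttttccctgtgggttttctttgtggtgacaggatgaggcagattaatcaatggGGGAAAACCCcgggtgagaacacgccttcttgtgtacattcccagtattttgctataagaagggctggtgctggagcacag
TATAAA, a form of the TATA box, lay at bases -32 to -27 from the start site of *Ccl8* and at -31 to -26 in *Ccl12*, its neighbour in the cluster, and was also present in *Ccl9*. It was found in 3 of the 6 member promoters and in 13.6% of the 32851 promoters of the table. GGG and CCC with any 4 bases between them, a form of the kappaB motif, was found at -81 to -72 of *Ccl20*, in 1 of the 6 and in 11.9% of all promoters. Both motifs were added after the sequences had been seen. Another kappaB form (GGGA, any 2 bases, TTCC), present in 1.47% of all promoters, was in none of these 6 windows. Nor was the core of the interferon-stimulated response element (GAAA, any 2 bases, GAAA), present in 3.44%. The AP-1 motif TGANTCA, in 7.81% of all promoters, was in 1 of them, *Ccl9*. A match describes letters only, and no motif was set against the expression values.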

How the data were processed

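The authors deposited the Feature Extraction output of 3 arrays, 1 for each of LPS, CRL1505 + LPS and CRL1506 + LPS, whose processed signal is an intensity after subtraction of local background, not normalized between arrays. They also deposited a table of log2 values normalized between arrays by a method not given in the sources used here. Its values differed from quantile-normalized log2 intensities (normexp, offset of 50, on median pixel signals) by at most 0.135.

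From the log2 processed signal the 75th percentile over all gene spots on the array was subtracted, outlier spots were left out, and a gene was taken by its brightest probe. No probe of a CC chemokine was an outlier or saturated. A probe well above background on neither array of a comparison was left out. Where a gene was dim on 1 side, the lowest signal well above background on that array, or the probe's own if higher, was used, and the ratio is a bound. The threshold was 2-fold. The study's methods used the same fold, together with a t-test, for each group against macrophages without LPS. Here it was applied between groups that all had LPS. The t-test of the study was not run, for want of replicates. The number of arrays limits the precision.

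The members, the gene lists and the settings were chosen with earlier results of these data known. The genes named are all 10 members, the genes of fixed lists (other CC ligands, CC receptors, interferon-induced, NF-kappaB and early LPS response, and cell type markers), and for each member past 2-fold and measured on all arrays the 3 genes nearest in the log2 ratios to LPS. Alternatives were a shift by the median, the 75th percentile of probes well above background on every array, spike-in scaling, quantile and cyclic loess normalization, normexp on mean signals, the deposited table, other filters on spots and probes, and thresholds of 1.5-fold and 4-fold. No scaling between arrays was added after seeing the data. Python 3.11.15, R 4.3.3 and limma 3.58.1 were used, and the procedure was tested on simulated data. Protein sequences of the members were not used here. Results for 1 receptor gene are not reported here.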

Additional observations from a re-analysis of the deposited data

How the results depend on the processing

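No paired analysis was possible because each condition had 1 array, and for the same reason no array could be left out. No ratio past 2-fold changed its direction under any alternative. The median log2 ratio of the CC chemokines between CRL1505 + LPS and LPS, 0.63 over the 9 members with the *Ccl8* bound included and 0.54 over the 8 measured, was, over the 9, 0.93 with a shift by the median, 0.37 in the deposited table, 0.10 with spike-in scaling and 0.11 with no scaling between arrays. Between the strains the median of 0.63 became 1.13 with a shift by the median and 0.20 with spike-in scaling and with no scaling. The shift by the median, spike-in scaling and no scaling each move a whole array by construction. The deposited table does not. With it the log2 ratio of CRL1505 + LPS to LPS went from 0.45 to 0.12 for *Ccl2* and from 0.44 to 0.37 for *Ccl3*. The count of members at least 2-fold higher between the strains, 4, became 2 with the 75th percentile of probes well above background on every array, with quantile normalization, with cyclic loess and in the deposited table, and 1 with spike-in scaling, with no scaling and with a threshold of 4-fold. It was 6 with a shift by the median, beside 22.2% of all genes. For CRL1505 + LPS against LPS, 5 members passed a threshold of 1.5-fold and 1 a threshold of 4-fold. The member past 4-fold was *Ccl8*, as it was between the strains, and it could enter only as higher. For CRL1506 + LPS against LPS, 1 member was at least 1.5-fold higher, and 0 were at least 4-fold lower. The share of all genes past 1.5-fold or 4-fold was not determined, so nothing is read from these counts. In all, 111 counts and medians under an alternative stayed within 1.5 times the count or within the SD between probes, the count of 6 among them. So did 267 ratios of single genes, and 69 ratios of single genes moved by more. The cause was not tested. Part of the values that stayed could hardly have moved. The alternative filters on spots changed the use of no member probe, and averaging the probes of a gene could alter only *Ccl4*. The numbers that stayed are therefore not a measure of stability. Signal over background limited *Ccl8* and *Ccl22*, and with 1 array per condition no difference can be set against the variation between cultures.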
